A study of Homo sapiens with 12 samples.

Results

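Type 1 diabetes is an autoimmune disease in which autoantibodies to proteins of the pancreatic beta cell appear before insulin is lost. The 6 genes described here encode such targets: GAD1 and GAD2 (glutamate decarboxylases), PTPRN and PTPRN2 (secretory granule proteins), ICA1 (a trafficking protein) and TSPAN7 (a membrane protein). They were chosen by name, and all 6 were found among the 35337 genes of the deposited table. All 6 passed the filter on low values that left 13847 genes for testing.

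The RNA came from EndoC-βH3 cells, a single beta-like cell line derived from a human fetal pancreas, labelled WT, immortalised with hTERT and the SV40 large T antigen and carrying the CreER recombinase. Senescent cells had been treated with 4-hydroxy tamoxifen for 3 weeks, which activates CreER and removes the immortalising transgenes, and the non-senescent cells were labelled as controls. CreER was carried by both groups and tamoxifen was given to the senescent cells alone, so loss of the transgenes and the drug itself cannot be told apart. There were 6 samples of each group, with 2 of each in batch A and 4 of each in batch B. The question was how the RNA level of each autoantigen gene differed between senescent and non-senescent cells, and whether the difference held in each batch. The transcript was measured, not the protein or an autoantibody response.

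Total reads ranged from 8873569 to 17106776 in batch A libraries and from 4672924 to 7063264 in batch B libraries. The labels and methods do not say that samples of a batch came from separate cultures, so p-values measure the spread between these samples, which may be technical. CDKN1A, which encodes the cell-cycle inhibitor p21, was higher in senescent cells by 3.92 ± 0.35 (log2, SE) and the proliferation marker MKI67 fell by 2.83 ± 0.14. Beta cell markers were present in every sample, with summed normalised read counts over 10 genes of 37687 to 57758 in non-senescent and 80324 to 215587 in senescent cells. Most of that difference was INS, since the other 9 summed to 22630 to 28120 and 29637 to 30639. Of the 10, 3 were called higher, and 2 in some of the alternative fits given below. Hormones of other islet cells were also present. The 3 delta and PP cell markers, nearly all SST, summed to 159945 to 287891 in non-senescent and 115182 to 142729 in senescent cells. PPY was below the filter and not tested, with 3 reads over all samples together and 0 in senescent ones. The 3 alpha cell markers summed to 3869 to 9761 in non-senescent and 2273 to 5515 in senescent cells. The 7 acinar and duct markers summed to 276 to 437 in non-senescent and 222 to 405 in senescent cells. Those sums hide opposite changes, as CPA1 differed by 2.25 ± 0.13 (log2, SE) and KRT19 by -1.35 ± 0.11, and the other 5 were below the filter. The 5 mesenchymal and immune markers summed to 28.6 to 177 in non-senescent and 23.3 to 84.7 in senescent cells. In bulk RNA, fewer cells of a type and less RNA per cell cannot be told apart, and the part of these marker differences in the results for the autoantigen genes was not tested.

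Glutamate decarboxylase makes the transmitter GABA from glutamate with pyridoxal phosphate as cofactor. GAD2 encodes the smaller GAD65, the form against which most patients' GAD antibodies are directed, and GAD1 encodes GAD67. PTPRN encodes IA-2 and PTPRN2 encodes phogrin, related transmembrane proteins of insulin granules whose phosphatase-like domains have little or no activity towards phosphotyrosine. ICA1 encodes ICA69, a BAR-domain protein that binds RAB2 and takes part in the formation of dense-core granules. TSPAN7 belongs to the tetraspanins, proteins that cross the membrane several times and organise other membrane proteins.

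On GRCh38 with the GENCODE v44 annotation, all 6 are protein-coding genes. GAD1 lies at chr2:170813213-170861151 on the plus strand, GAD2 at chr10:26216665-26304558 on the plus strand, PTPRN at chr2:219289623-219309648 on the minus strand, PTPRN2 at chr7:157539056-158587823 on the minus strand, ICA1 at chr7:8113184-8262687 on the minus strand and TSPAN7 at chrX:38561542-38688920 on the plus strand. Annotated genes that overlap them number 20, of which 0 cover the 3′ end that CEL-seq2 reads. By GENCODE v44 name, 0 of the 20 matched a row of the deposited table, and rows under other names would be missed. MIR153-1 lies within PTPRN and MIR153-2 within PTPRN2, each on the strand of its host. The mature miRNA of the locus in PTPRN, at chr2:219294126-219294147 on the minus strand (RefSeq, GRCh38.p14), is shown because its hosts are a pair of related genes that both rose. Its level was not measured by these libraries. Capitals mark the seed, bases 2 to 8.
hsa-miR-153-3p: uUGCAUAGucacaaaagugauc

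The start regions of the decarboxylase pair are shown because the 2 genes moved in opposite directions. Each window runs from 250 bases before to 50 bases after a RefSeq start on GRCh38.p14, 5′ to 3′ on the strand of the gene. The RefSeq promoter table matched 4 of the 6 genes, GAD1, GAD2, PTPRN and ICA1, with 6 windows in all. It held no entry for PTPRN2 or TSPAN7. Capitals mark matches on either strand to 6 motifs. These were the TATA box (TATAAA), the cAMP response element (TGACGTCA), an E-box of the kind bound by NEUROD1 (CAGATG), a homeodomain motif (TAATTA), the GC box (GGGCGG) and the CCAAT box (CCAAT). No matches in the printed windows overlapped.
GAD1, chr2:170816637-170816936: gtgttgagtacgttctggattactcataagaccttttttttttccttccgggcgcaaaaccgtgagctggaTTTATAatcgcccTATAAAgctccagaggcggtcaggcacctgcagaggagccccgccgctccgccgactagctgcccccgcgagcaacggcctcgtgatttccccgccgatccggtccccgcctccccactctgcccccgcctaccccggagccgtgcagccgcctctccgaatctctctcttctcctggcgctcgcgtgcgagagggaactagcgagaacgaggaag
GAD2, chr10:26216122-26216421: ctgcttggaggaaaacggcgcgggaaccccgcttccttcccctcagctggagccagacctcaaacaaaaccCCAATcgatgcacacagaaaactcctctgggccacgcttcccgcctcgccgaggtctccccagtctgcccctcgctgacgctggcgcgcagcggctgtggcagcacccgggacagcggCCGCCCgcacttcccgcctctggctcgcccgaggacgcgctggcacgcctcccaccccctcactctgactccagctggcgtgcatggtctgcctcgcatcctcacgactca
GAD2, chr10:26216524-26216823: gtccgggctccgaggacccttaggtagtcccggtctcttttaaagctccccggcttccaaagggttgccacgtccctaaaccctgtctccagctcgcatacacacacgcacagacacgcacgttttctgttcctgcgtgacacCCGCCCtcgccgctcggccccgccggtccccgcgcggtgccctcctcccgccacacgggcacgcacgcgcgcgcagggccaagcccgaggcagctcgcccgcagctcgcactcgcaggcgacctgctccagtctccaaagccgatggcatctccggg

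The GAD1 window held TATAAA at position -166 from the start and its reverse complement at -179. The GAD2 windows held no TATAAA. The first held CCAAT at -179 and the reverse complement of GGGCGG at -61, and the second held the reverse complement of GGGCGG at -107. Among 35116 promoters of the table, 11.5% held the TATA box, 1.85% the cAMP response element, 14.7% the E-box, 4.84% the homeodomain motif, 45.0% the GC box and 34.6% the CCAAT box. The GC content was 61.7% in the GAD1 window and 67.7% and 68.3% in the GAD2 windows. These matches describe letters in the windows and were not tested for a part in expression.

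Of the 6 autoantigen genes, 3 rose in senescent cells past both limits of the test (limma with batch as a term, Benjamini-Hochberg adjusted p under 0.1 over 13847 genes and a fold change over 1.5). They were PTPRN, PTPRN2 and GAD1. Of all tested genes, 11.6% rose, 11.8% fell and 23.4% were called in either direction. GAD2 fell and ICA1 rose with an adjusted p under 0.1 but by less than 1.5-fold, so 5 of 6 had an adjusted p under 0.1 at any fold, against 45.5% of all genes (23.2% higher and 22.3% lower). That count was 2 without a batch term and 3 with batch B alone. TSPAN7 did not pass the test. The median log2 difference of the 6 genes was 0.51, beside 0.01 over all tested genes. In the values given below, a normalised read count is the number of reads of a gene divided by the size factor of its library, and differences are of log2(normalised read count + 1), senescent minus non-senescent.

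**Figure D1:**
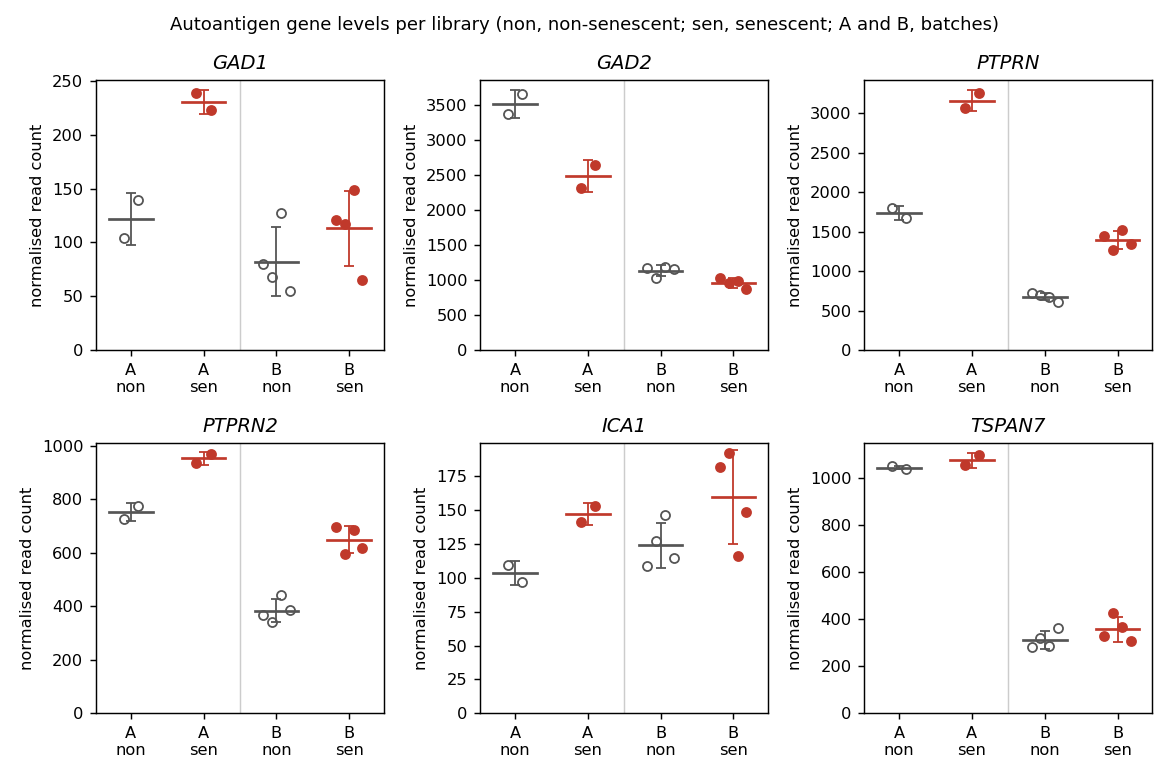
Normalised read counts of the 6 autoantigen genes in each of the 12 samples, by group and batch, on a linear axis. Senescent samples of PTPRN and PTPRN2 lie above all non-senescent samples of the same batch, while those of GAD1, GAD2, ICA1 and TSPAN7 overlap with non-senescent samples in batch B.

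PTPRN, which encodes IA-2, had the largest difference of the 6. Its normalised read counts were 1799 and 1671 in the non-senescent samples of batch A and 3067 and 3254 in the senescent ones. In batch B they were 727, 694, 678 and 611 in non-senescent and 1447, 1265, 1526 and 1341 in senescent samples. The groups did not overlap in either batch, which held for 2 of the 6 genes, both higher, against 11.9% of all tested genes apart in that direction and 23.8% in either. PTPRN rose by 0.98 ± 0.07 (log2, SE), a fold change of 1.97, with a limma adjusted p of 8.09e-09. Batch A gave 0.87 ± 0.11 and batch B 1.04 ± 0.08.

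PTPRN2, which encodes phogrin, rose less in batch A than in batch B. In batch A its normalised read counts were 728 and 776 in non-senescent and 936 and 971 in senescent samples. In batch B they were 367, 340, 444 and 385 in non-senescent and 698, 596, 686 and 619 in senescent samples. The groups were apart in both batches. The overall difference was 0.62 ± 0.09 (log2, SE), a fold change of 1.54 that lay just over the 1.5-fold limit, with a limma adjusted p of 4.03e-05. Batch A gave 0.34 ± 0.13 and batch B 0.76 ± 0.09. The batch by group interaction of 0.42 ± 0.16 had an unadjusted limma p of 0.0191 and an adjusted p of 0.208, and 0 of the 6 genes passed that test, which 4.21% of all genes did. Leaving out non-senescent B2 or senescent B1 took the difference to 0.57 and 0.58, under the fold limit, with limma adjusted p of 0.000125 and 0.000146.

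GAD1, which encodes GAD67, was the third gene called higher and the most variable. In batch A its normalised read counts were 104 and 139 in non-senescent and 238 and 223 in senescent samples, and the groups were apart. In batch B they were 79.8, 67.5, 127 and 54.7 in non-senescent and 121, 118, 149 and 64.8 in senescent samples. There senescent B4 lay below 3 non-senescent samples, and non-senescent B3 lay above 3 senescent ones. The difference was 0.62 ± 0.21 (log2, SE), a fold change of 1.54 with a 95% interval of 0.17 to 1.07 on the log2 scale and a limma adjusted p of 0.0286. Within batches, in the fit whose spread is shared by both, it came to 0.93 ± 0.37 (A) and 0.46 ± 0.26 (B). Their limma adjusted p were 0.103 and 0.178. Fitted on its own samples only, batch A gave a limma adjusted p of 0.00714 and batch B 0.305. Leaving out non-senescent A1, non-senescent B4, senescent A1 or senescent B3 took the difference to 0.53, 0.53, 0.57 and 0.54, under the fold limit.

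GAD2, which encodes GAD65, moved the other way. In batch A its normalised read counts were 3372 and 3661 in non-senescent and 2321 and 2648 in senescent samples. In batch B they were 1179, 1024, 1181 and 1159 in non-senescent and 1034, 958, 992 and 868 in senescent samples. The groups were apart in batch A and overlapped in batch B by 1 pair of samples, non-senescent B2 at 1024 and senescent B1 at 1034. GAD2 fell by 0.33 ± 0.07 (log2, SE), to 0.797 of its level in non-senescent cells, with a limma adjusted p of 0.00199. The fitted values were -0.50 ± 0.11 within batch A and -0.24 ± 0.08 within batch B.

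ICA1, which encodes ICA69, had the lowest counts besides GAD1, with 72 to 314 reads per library. In batch A its normalised read counts were 109 and 97.0 in non-senescent and 141 and 153 in senescent samples. In batch B they were 108, 127, 146 and 114 in non-senescent and 182, 192, 116 and 148 in senescent samples. Senescent B3, at 116, lay below 2 non-senescent samples of that batch. ICA1 rose by 0.40 ± 0.13 (log2, SE), a fold change of 1.32, with a limma adjusted p of 0.0258. In the fit whose spread is shared by both batches, the within-batch differences were 0.51 ± 0.23 (A) and 0.34 ± 0.16 (B). Their limma adjusted p were 0.161 and 0.112. Fitted on its own samples only, batch A gave a limma adjusted p of 0.0265 and batch B 0.183.

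TSPAN7 differed by less than the other 5 genes. In batch A its normalised read counts were 1050 and 1039 in non-senescent and 1054 and 1098 in senescent samples. In batch B they were 282, 321, 288 and 364 in non-senescent and 331, 426, 365 and 306 in senescent samples, which overlapped. The difference of 0.14 ± 0.09 (log2, SE) had a limma adjusted p of 0.262. Its 95% interval ran from -0.06 to 0.33, and so did not reach the 1.5-fold limit of 0.58 in either direction.

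**Figure D2:**
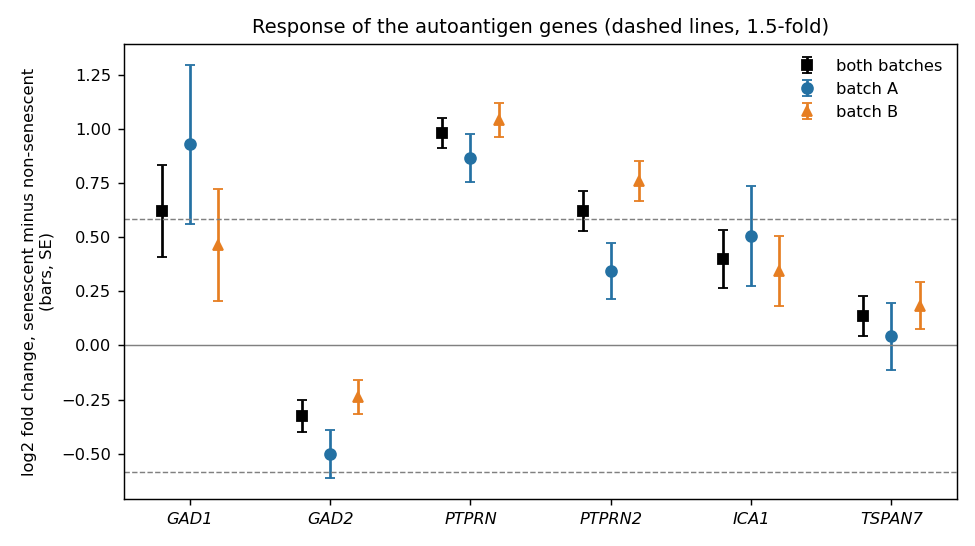
Difference between senescent and non-senescent cells in log2(normalised read count + 1) for the 6 autoantigen genes, over both batches (squares) and within batch A (circles) and batch B (triangles), with bars of 1 SE and dashed lines at a 1.5-fold change. PTPRN lies above the upper line in both batches, PTPRN2 only in batch B and GAD1 only in batch A, and GAD2 lies below 0 in both batches.

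The spread between replicates was wider than Poisson counting of reads gives for all 6 genes, although reads need not be independent molecules. Within group and batch, the chi-square of the read numbers per degree of freedom was 7.73 for GAD1, 10.3 for GAD2, 6.37 for PTPRN, 3.03 for PTPRN2, 3.34 for ICA1 and 3.99 for TSPAN7, over 8 degrees of freedom each. GAD1 had 44 to 531 reads per library.

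For 5 of the 6 autoantigen genes the batches differed by more, on the log2 scale, than senescent and non-senescent cells did. In batch A the level was 3.18 times that in batch B for TSPAN7, 2.83 times for GAD2, 2.41 times for PTPRN, 1.80 times for GAD1 and 1.70 times for PTPRN2, and these 5 of 6 genes passed both limits of the limma test for batch. Of all tested genes, 26.8% were called higher in batch A and 53.1% were called in either direction. ICA1 was slightly higher in batch B, by 0.17 ± 0.14 (log2, SE), with a limma adjusted p of 0.293. By group and batch, the mean level of PTPRN was ordered senescent A (3160 ± 132, SD, n = 2), non-senescent A (1735 ± 90.3), senescent B (1395 ± 115, n = 4) and non-senescent B (678 ± 48.8), and PTPRN2 kept this order at 953 ± 25.2, 752 ± 34.0, 650 ± 49.8 and 384 ± 44.1. For GAD2 the order was non-senescent A (3517 ± 204), senescent A (2484 ± 231), non-senescent B (1136 ± 75.0) and senescent B (963 ± 70.4). For GAD1 it was senescent A (231 ± 11.0), non-senescent A (122 ± 24.5), senescent B (113 ± 35.1) and non-senescent B (82.3 ± 31.6), in which the neighbours from non-senescent A downwards lay within their SDs. TSPAN7 separated by batch alone, at 1076 ± 31.4 and 1045 ± 7.33 in senescent and non-senescent A and 357 ± 51.9 and 314 ± 37.8 in batch B. ICA1 was ordered by group, at 159 ± 34.7 and 147 ± 8.37 in senescent B and A and 124 ± 16.7 and 103 ± 8.86 in non-senescent B and A, and of these neighbours senescent B and A differed by less than the larger SD. What differed between the batches is not given in the sources used here.

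The balance within each pair of related genes was compared as the share of one gene in the summed normalised read counts of both, which does not depend on the scaling of libraries. The reads were of 3′ ends with no correction for capture, so the share is compared between groups and is not a ratio of molecules. GAD2 made up 97.0% and 96.3% of the decarboxylase reads in non-senescent A and 90.7% and 92.2% in senescent A. In batch B its share was 93.7%, 93.8%, 90.3% and 95.5% in non-senescent and 89.5%, 89.1%, 87.0% and 93.1% in senescent samples. The groups were apart in batch A and overlapped in batch B. The mean fell from 94.4% ± 2.43 (SD, n = 6) to 90.3% ± 2.23, a difference of -4.18 percentage points with a 2-sided exact permutation p of 0.00952, with labels exchanged within batch over 420 arrangements. Within batch B the difference was -3.66 points, with an exact permutation p of 0.0571.

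The PTPRN share of the reads of PTPRN and PTPRN2 was 71.2% and 68.3% in non-senescent A and 76.6% and 77.0% in senescent A. In batch B it was 66.4%, 67.1%, 60.4% and 61.3% in non-senescent and 67.5%, 68.0%, 69.0% and 68.4% in senescent samples. Every senescent sample lay above every non-senescent sample of its batch. The mean rose from 65.8% ± 4.16 (SD, n = 6) to 71.1% ± 4.48, a difference of 5.28 percentage points. Its 2-sided exact permutation p of 0.00476 was the smallest that the 420 arrangements can give, and both shares had a p of 0.00952 after Benjamini-Hochberg adjustment over the 2 exact tests. Within batch B the difference was 4.38 points, with an exact permutation p of 0.0286, the smallest possible there. Batch A alone, with 2 samples a group, was given no test.

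**Figure D3:**
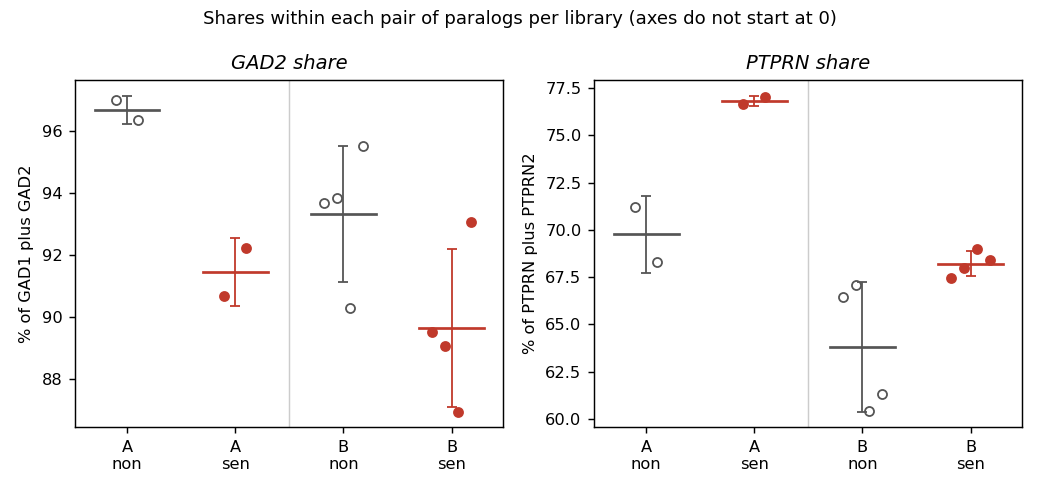
Share of GAD2 in the normalised read counts of GAD1 and GAD2, and of PTPRN in those of PTPRN and PTPRN2, in percent, for each of the 12 samples by group and batch. The mean GAD2 share differs by -4.18 percentage points (senescent minus non-senescent) with overlap in batch B, and the PTPRN share is higher by 5.28 points with the groups apart in both batches.

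The other genes around GABA were read from the same fit. Of 17 genes of GABA metabolism and transport, 15 were tested, 2 rose and 2 fell, with a median log2 difference of 0.08. ABAT, the transaminase that breaks GABA down, rose by 2.00 ± 0.12 (log2, SE; limma adjusted p 6.46e-10), from a mean of 135 ± 39.0 (SD, n = 6) to 529 ± 53.5 normalised read counts. PDXK, a kinase of the pathway that makes the pyridoxal phosphate cofactor, fell by 0.69 ± 0.17, and LRRC8A, a subunit of the volume-regulated anion channel, fell by 0.66 ± 0.10. The vesicular GABA transporter gene SLC32A1 was near the filter at 12.7 and 9.03 and did not pass the test.

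Of 21 GABA receptor genes, 9 passed the filter on low values, 3 rose and 1 fell, with a median of -0.02. GABRA2, a subunit of the GABA-A receptor, rose by 2.37 ± 0.22 (log2, SE; limma adjusted p 2.54e-07), from 29.0 ± 20.1 (SD, n = 6) to 140 ± 52.4. GABBR1, of the GABA-B receptor, rose by 1.20 ± 0.37 (0.95 in edgeR), but its groups were not apart in both batches. It gave 0.53 ± 0.64 within batch A and 1.54 ± 0.45 within batch B.

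Of 18 receptor-type tyrosine phosphatases other than PTPRN and PTPRN2, 13 were tested, 5 rose and 1 fell, with a median log2 difference of 0.54. PTPRS rose by 1.70 ± 0.34 (log2, SE), PTPRZ1 by 1.53 ± 0.24, PTPRE by 1.48 ± 0.16 and PTPRF by 0.86 ± 0.11, each with a limma adjusted p under 0.1. PTPRC, the leukocyte antigen CD45, fell by 1.58 ± 0.43 from a mean of only 13.5 normalised read counts. Of 9 genes whose products bind or process IA-2, 8 were tested, 0 rose and 2 fell, with a median of -0.21. These 2 were PTBP1, an RNA-binding protein that stabilises granule mRNAs including that of IA-2, which fell by 0.75 ± 0.06 (limma adjusted p 4.52e-08), and CAPN2, a calpain subunit, which fell by 0.79 ± 0.10.

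None of the 6 relatives and partners of ICA69 was called in limma, with 0 higher and 0 lower and a median log2 difference of 0.05. ARFIP1, another BAR-domain protein, differed by 0.33 ± 0.10 and ARFIP2 by -0.18 ± 0.08, both with a limma adjusted p under 0.1 but under the fold limit. Of 32 other tetraspanins, 25 were tested, 4 rose and 3 fell, with a median of 0.15. TSPAN32 rose by 3.01 ± 0.36 (log2, SE) from 7.13 ± 5.28 (SD, n = 6) to 74.5 ± 48.1 normalised read counts, TSPAN31 by 1.23 ± 0.19, TSPAN33 by 0.89 ± 0.13 and CD81 by 0.59 ± 0.07, which lay at the fold limit (0.58 in edgeR). PRPH2, known from photoreceptors, fell by 2.35 ± 0.22, TSPAN4 by 0.89 ± 0.18 and TSPAN1 by 0.84 ± 0.18.

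Of 14 further genes whose products are known autoantigens in type 1 diabetes, 13 were tested, 4 rose and 0 fell, with a median log2 difference of 0.46. INS, which encodes insulin, rose by 2.23 ± 0.11 (log2, SE), IAPP, the precursor of islet amyloid, by 1.87 ± 0.07, G6PC2, the islet glucose-6-phosphatase subunit, by 1.11 ± 0.19 and HSPA5, an endoplasmic reticulum chaperone, by 0.97 ± 0.07. SLC30A8, the zinc transporter of insulin granules, differed by -0.16 ± 0.10 with a limma adjusted p of 0.237, -0.63 within A and 0.08 within B. CHGA, the granule protein chromogranin A, differed by 0.20 ± 0.08. SLC30A8, CHGA, SLC32A1, ARFIP1 and ARFIP2 were named after their values were seen.

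**Figure D4:**
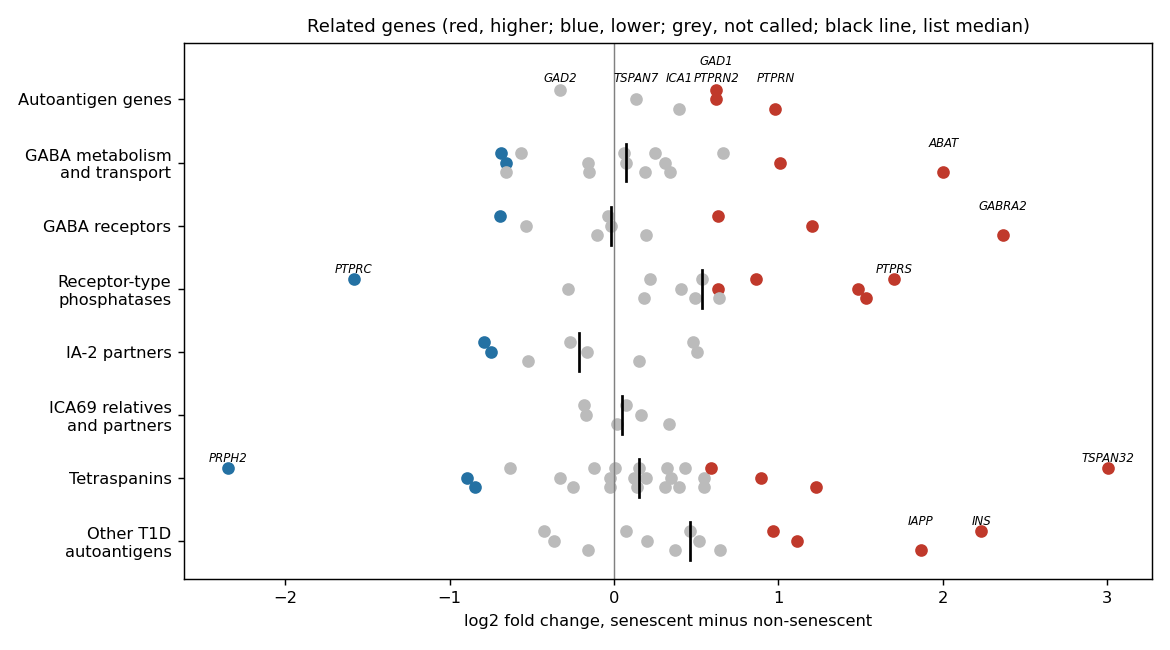
Difference between senescent and non-senescent cells in log2(normalised read count + 1), one point per tested gene, for the 6 autoantigen genes and 7 lists of related genes, with called genes in red (higher) or blue (lower) and a black line at the median of each list. The medians of the lists lie between -0.21 and 0.54, and ABAT, GABRA2, TSPAN32, INS and IAPP lie further to the right than any of the 6 autoantigen genes.

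The genes whose pattern was most like that of each autoantigen gene were found by the root mean square difference of batch-centred log2 profiles over the 12 samples, among the 11682 genes whose mean over the samples reached 20 normalised reads. For PTPRN the nearest were KIF5C, a neuronal kinesin, at 0.082, ZDHHC14, a palmitoyltransferase, at 0.089 and APLP1, a relative of the amyloid precursor protein, at 0.102. For PTPRN2 they were LAPTM4A, SEPHS2 and HBP1, at 0.084 to 0.091, and for GAD2 VDAC1, TPP1 and PDRG1, at 0.075 to 0.083. TSPAN7 was nearest to GTF3C6, FAM103A1 and FAM189B, at 0.087 to 0.099, and ICA1 to SLC6A20, at 0.105, with CCDC69 next. GAD1 had no neighbour as close, with ZXDB, KCNC4 and PDP1 at 0.236 to 0.243. PTPRN2 ranked 241 in likeness to PTPRN, and PTPRN ranked 801 in likeness to PTPRN2, at 0.222. GAD1 ranked 10049 in likeness to GAD2, and GAD2 ranked 6984 in likeness to GAD1, at 0.602. All profiles share the same libraries and scaling, and these distances are descriptions with no test.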

How the data were processed

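Poly(A) RNA of 12 EndoC-βH3 samples was profiled by CEL-seq2, which reads transcript 3′ ends. Groups, replicates and the letters A and B, taken as the batches, came from the labels. According to the methods and the submitters' processing notes, Cutadapt was used by the authors for trimming, Salmon 0.13.1 for quantification on GRCh38, and DESeq2 with a batch correction. Which annotation was used and how molecular identifiers were treated are not given in the sources used here, so reads are not known to be independent molecules. The deposited values are a signal: reads per gene divided by 1 size factor per sample. All of the non-zero values (100%) were whole multiples of the value of 1 read, with a tolerance of 1e-06, so reads could be recovered. The deposited table also holds the authors' mean, log2 fold change with its error, test score and p-values, which were not used. Isoforms cannot be told apart.

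Log2(value + 1) was fitted with limma 3.58.1 (R 4.3.3), with an intensity trend and batch as a term, over 13847 genes with a mean of at least 5. A call needed a fold change over 1.5 and an adjusted p (Benjamini-Hochberg) under 0.1. This scale understates the change of low genes. The spread comes from both groups and batches together. edgeR 4.0.16 (quasi-likelihood) and DESeq2 1.42.0 on the recovered reads, other scalings, filters, pseudocounts, leave-one-out fits and single batches were alternatives. Scripts were tested on simulated data. No replicate pair of a group agreed within the sampling noise of independent reads (chi-square per degree of freedom 4.28 to 8.05). Whether samples shared a culture or an RNA preparation cannot be told from this, as reads are not known to be independent molecules. The genes described and the lists were chosen with earlier results of these data known. Named genes were the 6 autoantigen genes, the 3 genes nearest to each in pattern, at most 4 called genes per direction in each list by adjusted p, and INS, CDKN1A and MKI67. Some genes that this rule selects are not reported here. Promoter and miRNA sequences came from RefSeq (GRCh38.p14) and gene positions from GENCODE v44.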

Additional observations from a re-analysis of the deposited data

Results flagged for a closer look

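Among the 32 sets of samples examined, 1 held a sample far from the others. GAD2 in non-senescent cells of batch B had its lowest sample at 1024 (replicate B2), while the other 3 lay between 1159 and 1181, a gap of 0.863 of the range against a critical value of 0.829. Chance flags about 1 in 20 such sets.

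Batches A and B gave different responses to senescence (limma interaction, adjusted p under 0.1) for 15 of 108 tested genes of the related lists, beside 4.21% of all genes. Values are given for 13 of them, as the log2 response in batch B minus that in batch A. Among the partners of IA-2 they were 0.63 ± 0.19 (SE) for UTRN and -0.44 ± 0.13 for CAPNS1. Among the tetraspanins, CD151 rose in A and fell in B (1.19 and -0.63, a difference of -1.83 ± 0.20, limma adjusted p 0.00015), TSPAN2 had -1.07 ± 0.22 and TSPAN1 1.27 ± 0.23. Among other autoantigens they were 0.71 ± 0.12 for SLC30A8 (limma adjusted p 0.00521) and -0.70 ± 0.15 for DDC. Among cell markers and checks they were -0.72 ± 0.15 for NKX6-1, 1.59 ± 0.13 for GCG, -1.25 ± 0.13 for IRX2, 0.89 ± 0.12 for SST, 2.60 ± 0.39 for CDKN1A and 0.94 ± 0.20 for MKI67.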

How the results depend on the processing

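PTPRN stayed called higher under every alternative run. GAD1 kept its direction but left the call with batch B alone (0.46, limma adjusted p 0.305), with no batch term (0.62, adjusted p 0.257), with a pseudocount of 8 (0.58), with equal library totals (0.51) and without any of 4 libraries, at 0.53 to 0.79 over all single omissions. PTPRN2 did so with array weights (0.54), batch A alone (0.34), equal totals (0.51) and without either of 2 libraries, at 0.57 to 0.67 over all single omissions. With equal totals 1 of the 6 genes was called, the median of all genes moved by -0.10 to -0.09, and 37.0% of calls were higher instead of 49.6%. Relative to that median, GAD1 was at 0.60 and PTPRN2 at 0.61. Of the 5 genes with an adjusted p under 0.1 in limma, GAD1, GAD2 (0.709) and ICA1 (0.116) lost it without a batch term, which left 2, GAD1 and ICA1 (0.183) with batch B alone, which left 3, and ICA1 (0.10) with equal totals, which left 4. With equal totals the genes called higher numbered 2 instead of 3 GABA receptors and 4 instead of 5 phosphatases. Tetraspanins called higher numbered 3 instead of 4, and beta cell markers 2 instead of 3, with equal totals, edgeR or TMM scaling. Among IA-2 partners, 3 instead of 2 were called lower with equal totals. In GABA metabolism and transport, 3 instead of 2 were called lower with equal totals or edgeR. Without a batch term 2143 genes were called instead of 3237. The GAD2 share difference was -3.66 points in batch B alone (exact p 0.0571), and the PTPRN share difference, 5.28 points, had an exact permutation p of 0.0779 over all 12 samples without regard to batch. The cause of these changes was not tested.

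Replicate numbers are shared between groups, and no pairing of same-numbered samples was seen. Their deviations correlated at -0.051 to 0.016, and 0 of 6 matched best with their own number. In batch A, A1 and A2 give the same value by construction, and these values cannot show that cultures were unpaired. With the replicate block 3211 genes were called and the block changed no call of the 6 genes or of either share (exact permutation p 0.03125 for each, the smallest possible).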
